A study of Rattus norvegicus with 9 samples.

Results

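Lubricin and the cartilage intermediate layer proteins are secreted proteins of articular cartilage, encoded in the rat by Prg4, Cilp and Cilp2. These 3 genes were taken by name from the 18924 genes of the deposited table. Each has 1 row, and all 3 were among the 13856 genes that passed a filter on low counts. The members were chosen by their measured levels in plasma with thrombin and in plasma alone, between which Prg4 and Cilp differed in opposite directions. That difference is given below as a description, with no test.

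Lubricin, the product of Prg4, is a mucin-like glycoprotein that chondrocytes of the superficial zone and the lining cells of the synovium release onto the joint surface, where it lowers friction. The product of Cilp is a matrix protein named for the zone beneath the surface, and it binds TGF-beta and dampens its signal. Cilp2 encodes a related protein from another gene. In cultured chondrocytes Prg4 is known to respond to TGF-beta, to mechanical load and to factors such as FOXO1 and CREB5.

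RNA was sequenced from primary chondrocytes of SD rats, cells of cartilage that were grown in DMEM with 10% FBS and used at passage 1 or 2. All 9 libraries came from cells held for 24 h in rat plasma, which was given alone (RP, n = 3), with thrombin (RPT, n = 3), or with both thrombin and an unnamed inhibitor (RPTi, n = 3). No label used here gives doses, the age of the rats or whether the replicates are separate animals or cultures. The p-values therefore cover the spread among these libraries, and that spread may be technical. Every group received plasma and no group received the inhibitor without thrombin.

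The libraries held between 31877265 and 43962783 counts each, so that a single count was worth 0.0227 to 0.0314 CPM (counts scaled to the library total). CPM of single genes were also corrected by TMM factors, which were 1.014 to 1.034 in RPT and 0.9683 to 0.9767 in RPTi. Sums of markers were not, so they lie higher in RPT and lower in RPTi than the CPM of their genes add up to. The chondrocyte label was matched by its markers. Col2a1, the main cartilage collagen, had a mean of 5790 FPKM (fragments scaled to gene length and library total) in RP, 3640 in RPT and 8820 in RPTi, and Sox9, the chondrocyte transcription factor, had 42.5, 26.9 and 38.0 FPKM. All 8 chondrocyte identity genes passed as lower in RPT than in RP, as did 15.2% of all tested genes. The 5 macrophage markers with a row summed to 4.19 to 4.35 CPM in RP and 5.14 to 5.27 in RPT. In RPTi their sum was 2.37 to 3.01 CPM. Cd68, the most abundant, had means of 2.96, 4.46 and 2.17 CPM in RP, RPT and RPTi. It passed as higher in RPT than in RP and as lower in RPTi than in RPT. Csf1r, the next, passed as lower in RPT (0.945 CPM in RP, 0.488 in RPT). The 4 endothelial markers summed to 0.387 to 0.418, 0.216 to 0.282 and 0.431 to 0.545 CPM in RP, RPT and RPTi. Of these, Kdr and Vwf had no more than 13 counts in any library, and Cdh5 had 0 in every RP and RPTi library. In bulk RNA, fewer cells of a type and less RNA per cell cannot be told apart.

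The windows around the annotated starts of the 3 genes are shown because the members differ in direction and the related genes Cilp and Cilp2 differ in their response. Each window runs from 250 bases before to 50 bases after the start in RefSeq, on build GRCr8, which is another build than the Rnor_6.0 of the counts. They lie at chr13:65054176-65054475 on the minus strand for Prg4, chr8:74672198-74672497 on the plus strand for Cilp and chr16:19573857-19574156 on the plus strand for Cilp2. Capitals mark every match to 10 searched motifs.
Prg4: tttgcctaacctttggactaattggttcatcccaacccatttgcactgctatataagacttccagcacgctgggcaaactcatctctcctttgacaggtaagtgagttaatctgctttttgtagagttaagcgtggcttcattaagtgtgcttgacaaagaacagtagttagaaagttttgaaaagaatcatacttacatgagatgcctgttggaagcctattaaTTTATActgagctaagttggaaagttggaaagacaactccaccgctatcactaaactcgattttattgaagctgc
Cilp: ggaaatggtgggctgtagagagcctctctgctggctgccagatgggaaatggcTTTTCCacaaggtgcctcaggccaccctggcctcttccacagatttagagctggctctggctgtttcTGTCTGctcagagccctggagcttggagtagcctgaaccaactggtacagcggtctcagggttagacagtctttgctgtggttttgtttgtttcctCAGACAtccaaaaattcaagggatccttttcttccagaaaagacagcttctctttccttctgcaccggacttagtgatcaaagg
Cilp2: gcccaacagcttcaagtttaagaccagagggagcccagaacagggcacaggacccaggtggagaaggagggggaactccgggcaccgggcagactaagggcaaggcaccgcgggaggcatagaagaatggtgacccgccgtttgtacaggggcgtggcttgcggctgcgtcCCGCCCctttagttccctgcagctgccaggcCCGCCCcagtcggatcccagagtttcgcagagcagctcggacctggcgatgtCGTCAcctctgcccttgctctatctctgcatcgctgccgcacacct

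The windows differed in base composition. G and C made up 39.3% of the Prg4 window, 51.0% of the Cilp window and 63.7% of the Cilp2 window, against a median of 51.7% over the 33469 windows of this length in the reference. The dinucleotide CG occurred 4 times in Prg4, 2 times in Cilp and 18 times in Cilp2 (median 7). Both strands were searched for the TATA box TATAAA, the AP-1 motif TGANTCA, the core TGACG of the cAMP response element, the STAT motif TTCNNNGAA, the SMAD motif CAGACA, the FOXO motif TGTTTAC, the TEAD motif GGAATG, the NFAT motif GGAAAA, the GC box GGGCGG and the SOX motif ACAATG. The Prg4 window held 1 match, TATAAA on the opposite strand at positions 226 to 231, counted from 1 at the left end (a motif of 14.2% of all windows). Only the exact letters were searched, so related forms, such as tatataag in the Prg4 window as shown, are not marked. The Cilp window held CAGACA at positions 121 to 126 on the opposite strand and 217 to 222 (21.1% of windows), and GGAAAA on the opposite strand at 54 to 59 (24.7%). The Cilp2 window held GGGCGG on the opposite strand at 172 to 177 and 203 to 208 (33.1%), and TGACG on the opposite strand at 255 to 259 (21.2%). No match overlapped another, and none of the 3 windows held the motif of AP-1 (7.33% of all windows), STAT (8.87%), FOXO (3.78%), TEAD (14.2%) or SOX (13.2%). Such matches are descriptions of letters, not of bound sites.

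Prg4 was high with thrombin, low in plasma alone and in between with the inhibitor. The gene (ENSRNOG00000002385) had 4.92, 5.60 and 5.82 FPKM in the RP libraries, 72.5, 73.6 and 84.6 FPKM in the RPT libraries, and 14.3, 14.9 and 15.1 FPKM in the RPTi libraries. The groups did not overlap, and the lowest RPT library stood far above the highest of any other group. In RPT, Prg4 lay above 93.0% to 94.2% of the genes with a count, compared with 49.9% to 52.6% in RP and 71.0% to 72.3% in RPTi. These values rest on 7352 to 9969 counts per library in RPT, 1449 to 1768 in RPTi and 525 to 783 in RP.

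Cilp was lowest with thrombin, where Prg4 was highest, and was highest with thrombin and inhibitor. The gene (ENSRNOG00000029911) had 6.73, 7.06 and 7.42 FPKM in RP, 1.62, 1.73 and 2.12 FPKM in RPT, and 9.15, 9.79 and 10.3 FPKM in RPTi. Again no library of a group reached the range of another. The smallest counts were those of RPT, 213 to 324, and the spread relative to the mean was widest there (SD 14.4% of the mean, n = 3), against 4.88% in RP and 5.94% in RPTi.

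Cilp2 followed neither of them. The gene (ENSRNOG00000020622) had 6.06, 6.37 and 7.34 FPKM in RP, 7.48, 8.53 and 9.24 FPKM in RPT, and 17.1, 17.1 and 17.4 FPKM in RPTi. The lowest RPT library and the highest RP library were neighbours, at 7.48 and 7.34 FPKM, a gap smaller than the spread within either group. The means, 6.59 FPKM in RP and 8.42 in RPT, lay further apart than either SD (0.668 and 0.883, n = 3). The RPTi libraries were close to each other (SD 1.15% of the mean, n = 3) and far above both other groups.

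**Figure D1:**
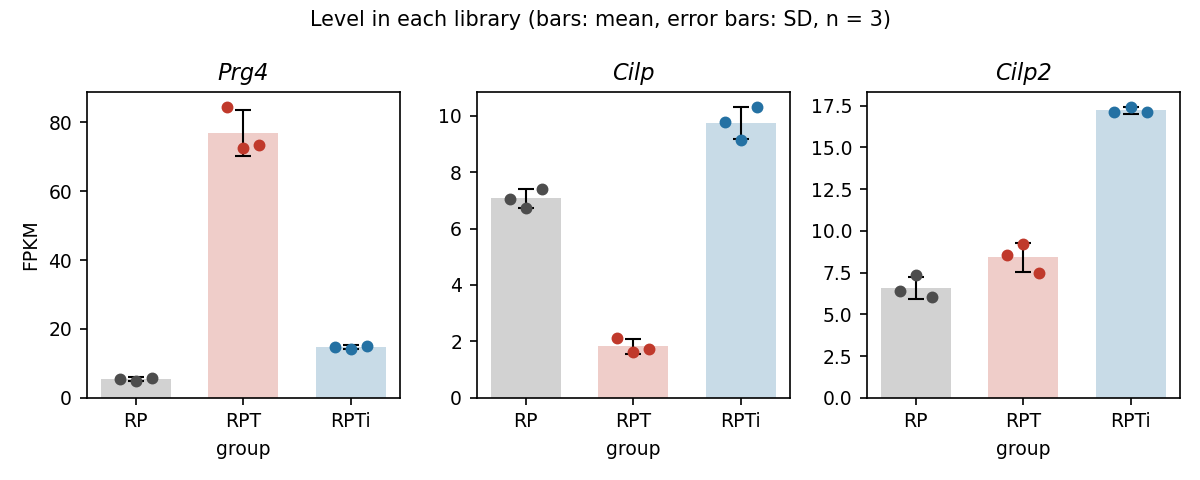
FPKM (vertical axis, from 0) of Prg4, Cilp and Cilp2 in RP, RPT and RPTi; points are libraries, bars are group means and error bars are the SD of 3 libraries. Prg4 peaks in RPT at 72.5 to 84.6 FPKM, Cilp is lowest there at 1.62 to 2.12 FPKM, and Cilp2 is highest in RPTi at 17.1 to 17.4 FPKM.

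Between RPT and RP, the difference that chose the members, the mean of Prg4 went from 5.44 ± 0.467 to 76.9 ± 6.73 FPKM and that of Cilp from 7.07 ± 0.345 to 1.82 ± 0.263 FPKM (SD, n = 3). In the fit of counts these were a 13.9-fold higher and a 3.92-fold lower level. Cilp2 was at 6.59 ± 0.668 FPKM in RP and 8.42 ± 0.883 FPKM in RPT (log2 fold change 0.34, SE 0.09). The ranges of CPM did not overlap between RP and RPT for any of the 3 members, with 2 higher and 1 lower, and the same held for 40.4% of all tested genes (20.0% higher, 20.5% lower). In the test of counts 28.9% of all genes passed. Nothing is read from these shares, since this contrast was used in the choice.

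With the inhibitor added to thrombin, Prg4 fell and both intermediate layer genes rose. Prg4 was 4.95-fold lower in RPTi than in RPT (log2 fold change -2.31, SE 0.08, 95% interval -2.47 to -2.14, adjusted p = 4.94e-10 in edgeR's quasi-likelihood test). Cilp was 5.60-fold higher (2.49, SE 0.10, interval 2.27 to 2.70, adjusted p = 1.61e-09) and Cilp2 2.15-fold higher (1.10, SE 0.09, interval 0.90 to 1.30, adjusted p = 8.76e-07). All 3 members passed, against 41.5% of all tested genes, with 20.4% of all genes rising and 21.1% falling. Their ranges did not overlap in 3 of 3 cases, against 50.8% of all genes (24.8% higher, 26.0% lower). This contrast shares the RPT libraries with the one that chose the members, so the opposite signs of Prg4 and Cilp here are not separate evidence of opposition.

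Set against plasma alone, all 3 genes were higher when thrombin and inhibitor were both present. Prg4 was 2.81-fold higher in RPTi than in RP (log2 fold change 1.49, SE 0.08, interval 1.32 to 1.66, adjusted p = 6.2e-08). Cilp2 was 2.71-fold higher (1.44, SE 0.09, interval 1.24 to 1.64, adjusted p = 3.31e-07), and Cilp 1.43-fold higher (0.52, SE 0.09, interval 0.32 to 0.71, adjusted p = 0.00104). Of all tested genes 24.2% passed in this comparison, with 11.9% of all genes rising and 12.3% falling. The ranges did not overlap for the 3 members, against 43.9% of all genes (21.7% higher, 22.2% lower). Prg4 thus stayed above its plasma level although it was far below its level with thrombin, whereas Cilp and Cilp2 were above both. This comparison shares the RP libraries with the choice of members.

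A contrast of RPTi with the mean of RP and RPT is orthogonal to the difference that chose the genes in a design with equal groups. There Prg4 was lower (-0.41, SE 0.07, interval -0.55 to -0.27, adjusted p = 0.000356), while Cilp (1.50, SE 0.08, interval 1.34 to 1.67, adjusted p = 1.56e-08) and Cilp2 (1.27, SE 0.08, interval 1.11 to 1.44, adjusted p = 6.38e-08) were higher. In this contrast 36.9% of all tested genes passed, 18.5% as higher and 18.4% as lower. Scaling mattered for the balance of all genes but for no call of a member. Without TMM factors, 38.4% rather than 49.2% of the genes called between RPTi and RPT were higher, and 36.6% rather than 49.1% between RPTi and RP; on log2(FPKM + 1) both shares were 38.8%.

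Ratios of FPKM within a library show how the make-up of the set shifted, free of the library total. Prg4 over Cilp lay between 0.731 and 0.792 with plasma alone, between 39.9 and 44.8 with thrombin, and between 1.47 and 1.56 with thrombin and inhibitor. Prg4 over Cilp2 was 7.84 to 9.92 in RPT, whereas RP (0.670 to 0.961) and RPTi (0.818 to 0.886) overlapped for this pair. The related genes Cilp2 and Cilp had a ratio of 4.02 to 5.71 in RPT, 1.66 to 1.91 in RPTi and 0.816 to 1.09 in RP. From RP to RPTi the log2 ratio of Cilp2 to Cilp went from -0.11 ± 0.21 to 0.82 ± 0.10 (SD, n = 3), a difference of 0.93 (two-sided exact permutation p = 0.1, the smallest that 3 against 3 libraries can give, and 0.15 after Benjamini-Hochberg adjustment over the 3 pairs). For Prg4 over Cilp the same difference was 0.98 (exact permutation p = 0.1, adjusted 0.15), and for Prg4 over Cilp2 it was 0.05 (exact permutation p = 0.9). The shift of Prg4 over Cilp between RP and RPT follows from the choice of members and is a description. The permutation tests share the RP libraries with that choice, and with so few libraries none of them could pass 0.05.

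**Figure D2:**
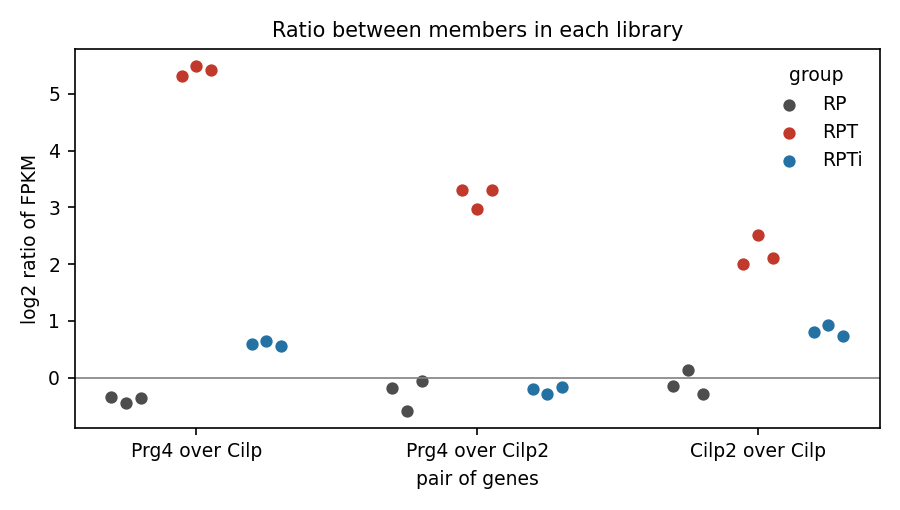
Log2 ratio of FPKM (vertical axis) for each pair of genes (horizontal axis), 1 point per library, coloured by group. In RPT Prg4 over Cilp reaches 5.32 to 5.48, and Prg4 over Cilp2 lies between -0.58 and -0.06 in RP and between -0.29 and -0.17 in RPTi.

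Between RPT and RP and between RPTi and RPT, most called genes of the superficial zone had the sign opposite to that of Prg4, while between RPTi and RP most shared its sign. Of 13 tested genes of this zone and of the joint surface, 7 fell and 2 rose in RPT against RP (median log2 fold change -0.50, against -0.001 over all tested genes, of which 15.2% fell and 13.6% rose). In RPTi against RPT, 9 rose and 2 fell (median 0.77), and in RPTi against RP 7 rose and 2 fell (median 0.45). Of all tested genes 20.4% rose and 21.1% fell in the former, and 11.9% rose and 12.3% fell in the latter. The same shares stand beside the counts of the lists below. Gdf5, a growth factor of forming joints, fell in RPT, with 18.1 ± 0.214 CPM in RP against 5.72 ± 0.837, and reached 40.2 ± 2.08 CPM with the inhibitor (SD, n = 3). Abi3bp, an extracellular matrix protein, was at 178 ± 40.4, 93.8 ± 8.87 and 518 ± 63.7 CPM in the same order. Dkk3, a secreted glycoprotein of the Dickkopf family, and the transcription factor gene Erg fell 1.87-fold and 1.41-fold with thrombin and were 2.92-fold and 2.86-fold higher with the inhibitor. The genes that rose in RPT were the Wnt inhibitor Wif1 (1.36-fold) and the matrix glycoprotein Tnc (1.21-fold). Wif1 fell again in RPTi (-0.85, SE 0.08, adjusted p = 3.68e-06), whereas Tnc was at 0.00 between RPTi and RPT (adjusted p = 0.98).

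Genes of the middle and deep zones were lower with thrombin in 13 of 14 cases, and none rose (median -0.92). Of all tested genes 15.2% fell. Col2a1, Acan, Hapln1 and Col9a1 of this list are also chondrocyte identity genes, all of which fell, so the fall is not particular to these zones. In RPTi against RPT 13 rose and 1 fell (median 1.49). Ucma, a secreted protein of cartilage, was at 434 ± 13.2 CPM in RP, 197 ± 3.18 in RPT and 729 ± 66.8 in RPTi. Matn1 and Matn3, which encode matrilins, fell 2.56-fold and 2.66-fold with thrombin and rose 3.29-fold and 4.03-fold with the inhibitor. Comp, a matrix protein that also binds lubricin, fell 1.57-fold and rose 2.74-fold. Between RPTi and RP 11 of the 14 rose and 3 fell, namely Cytl1, Scrg1 and Chad, but only 1 fell without RPTi replicate 2 and 2 without RP replicate 1, RP replicate 2 or RPTi replicate 3. The median of the 14 in that comparison was 0.60, Cilp was at 0.52 and Cilp2 at 1.44, where the aggrecan gene Acan was at 1.23 (SE 0.06).

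**Figure D3:**
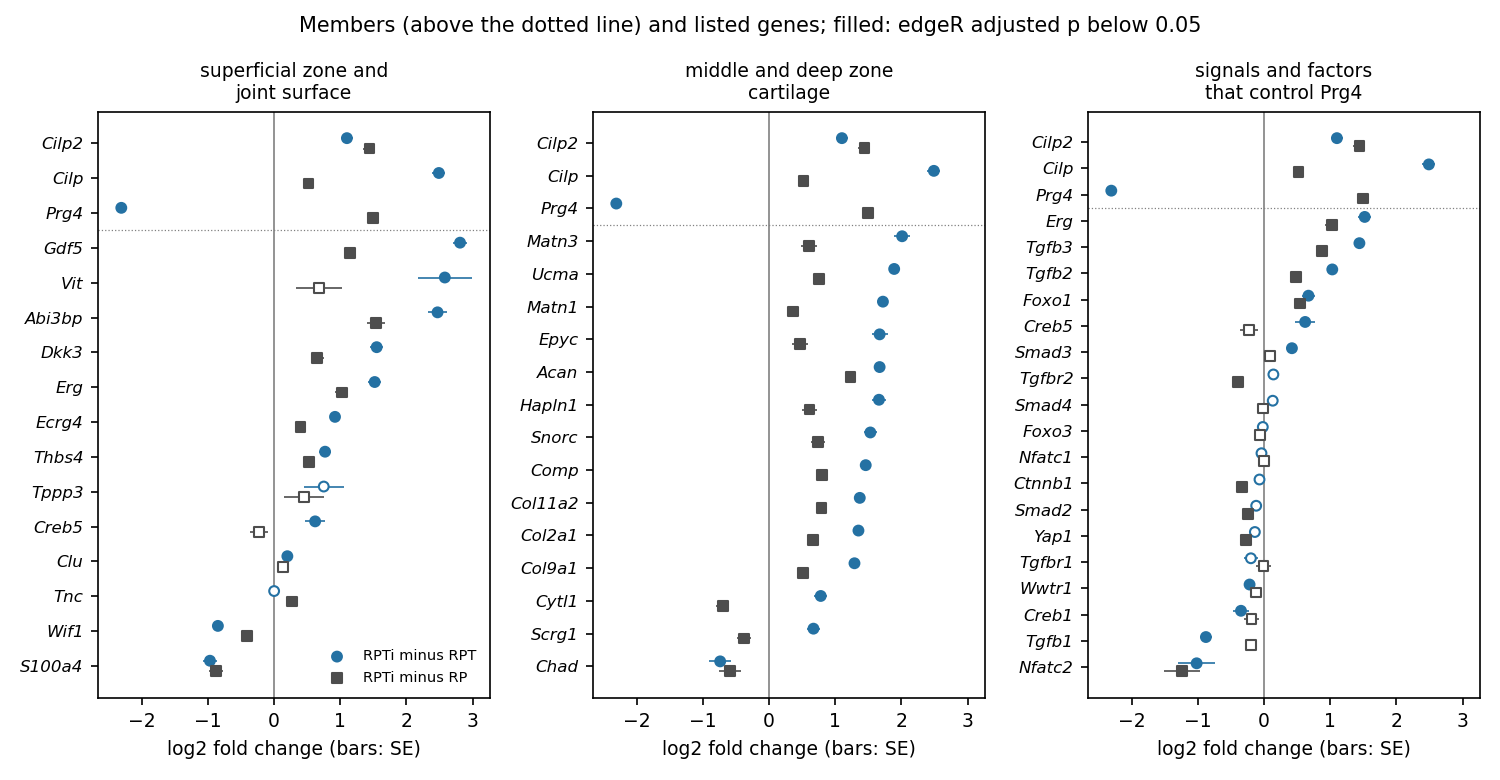
Log2 fold changes (horizontal axis, bars are SE) of the 3 members, above the dotted line, and of the tested genes of 3 lists (superficial zone and joint surface, middle and deep zone, and signals and factors that control Prg4), for RPTi minus RPT (circles) and RPTi minus RP (squares); filled symbols have an edgeR adjusted p below 0.05. Prg4 lies at -2.31 between RPTi and RPT, left of every plotted gene of these 3 lists, Cilp lies at 2.49, right of the middle and deep zone genes (up to 2.01, Matn3), and Cilp2 at 1.10 lies within their range.

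Among 18 signals and transcription factors known to act on Prg4, 1 rose and 7 fell in RPT, with 10 not passing (median -0.14). Without RP replicate 3, 2 rose, Tgfbr1 being the other. The one that rose with all libraries was Tgfb1, which had 307 ± 32.2 CPM with thrombin against 191 ± 14.6 in plasma alone (0.69, SE 0.09, adjusted p = 0.000124), and it was 1.85-fold lower in RPTi, at 166 ± 17.4 CPM. The other TGF-beta ligands went the opposite way: Tgfb3 fell 1.47-fold and rose 2.72-fold, and Tgfb2 fell 1.47-fold and rose 2.04-fold. The receptor gene Tgfbr2 fell 1.44-fold with thrombin. Creb5 fell 1.81-fold from 6.91 ± 1.07 CPM, and Foxo1 did not pass in RPT (-0.13, adjusted p = 0.35) but was 1.59-fold higher in RPTi than in RPT. In RPTi against RPT 6 of the 18 rose and 4 fell (median -0.03), and against RP 4 rose and 5 fell (median -0.09).

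Partners of lubricin on the joint surface moved in part with Prg4. Of 11 tested hyaluronan synthases and binding partners, 6 rose and 2 fell with thrombin (median 0.23), and 2 rose and 7 fell in RPTi against RPT (median -0.55). Tlr2, a receptor that lubricin binds, was at 1.51 ± 0.367 CPM in RP, 11.8 ± 1.65 in RPT and 1.84 ± 0.0625 in RPTi. Cd44, the hyaluronan receptor that lubricin also binds, was at 192 ± 5.55, 399 ± 29.8 and 123 ± 11.5 CPM. The hyaluronan synthase gene Has2 rose 1.34-fold and fell 1.60-fold, while Has1 and Has3 stayed below 0.4 CPM in every group mean and did not pass in any comparison. The 2 genes that fell in RPT were Comp and Col2a1. Against RP, 2 of the 11 rose and 3 fell in RPTi, and 5 fell without TMM factors or with a replicate block.

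Of 15 growth factor and pyrophosphate genes linked with the Cilp family, 3 rose and 9 fell with thrombin (median -0.33). Tgfb1, Tgfb2, Tgfb3, Tgfbr1, Tgfbr2 and Smad3 are also among the signals and factors that act on Prg4, so their calls are counted in both lists. Igfbp5, an IGF-binding protein, was at 609 ± 12.3 CPM in RP, 195 ± 14.3 in RPT and 745 ± 86.8 in RPTi, a fall and a rise in the same order as those of Cilp. Igf2 fell 1.62-fold and rose 1.95-fold. Enpp1, which makes pyrophosphate, and Slc20a1, a phosphate transporter, rose with thrombin (1.61-fold and 1.73-fold) and fell in RPTi (2.63-fold and 2.43-fold). Alpl of the same list went the opposite way, with a 2.47-fold fall in RPT and a 4.46-fold rise in RPTi against RPT. Ankh, which exports pyrophosphate, was 2.25-fold lower in RPTi than in RPT. The call of its small difference between RPT and RP (-0.17, adjusted p = 0.0379) was lost without any single RP library and without RPT replicate 1, RPT replicate 2 or RPTi replicate 1, and also without TMM factors, without the filter and in a fit of RP and RPT alone. In RPTi against RPT 6 of the 15 rose and 5 fell (median 0.14), and against RP 5 rose and 6 fell (median -0.01).

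Synovial lining cells also make lubricin, and markers of that cell type moved in both directions. The sum of 7 lining markers, not corrected by TMM factors, was 335 to 342 CPM in RP, 377 to 384 CPM in RPT and 282 to 288 CPM in RPTi. Most of it was Pdpn, at 327 ± 7.84, 358 ± 8.66 and 285 ± 2.78 CPM, which did not pass between RPT and RP (adjusted p = 0.0645) but did without TMM factors, in DESeq2, on FPKM and with a replicate block, followed by Cd55, at 4.02, 7.59 and 6.49 CPM. Clic5 rose from 2.31 ± 0.424 to 5.51 ± 1.47 CPM in RPT and fell to 0.640 ± 0.230 CPM in RPTi, below RP, whereas Prg4 stayed above RP. Vcam1, an adhesion molecule, fell 3.32-fold in RPT, opposite to Prg4 (-1.73, SE 0.26, adjusted p = 0.000274). Clic5 and Vcam1 were named after their values were seen. Of the 6 tested, 2 rose and 1 fell in RPT, none rose and 2 fell in RPTi against RPT (1 rose without RPT replicate 3), and 1 rose and 3 fell against RP (none rose without RP replicate 1, RP replicate 2, RPTi replicate 1 or RPTi replicate 3). Htra4 had no more than 9 counts in any library. The part of such cells in the Prg4 result was not tested.

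Other fibroblast and tendon markers were set beside Cilp, which is also expressed in such cells. Not corrected by TMM factors, the sum of 7 sublining and other fibroblast markers was 387 to 445 CPM in RPTi, 570 to 634 in RP and 532 to 591 in RPT. That of 5 tendon and ligament markers was 78.2 to 88.4, 54.9 to 63.0 and 63.3 to 64.5 CPM in the same order. Thy1, the most abundant fibroblast marker, was lower in RPTi than in RPT (-0.45, SE 0.07, adjusted p = 0.000262), where Cilp was higher, and Col15a1 came next, at 13.4 CPM in RP, 6.30 in RPT and 17.8 in RPTi. Of the 7, 5 fell and none rose in RPT, but 3 fell when any of RP replicate 2, RPT replicate 2 and RPT replicate 3 was left out, and the fall of Col15a1 was lost also without RPT replicate 1. In RPTi against RPT 5 rose and 1 fell. Against RP none rose and 2 fell, but 1 rose without RP replicate 2, and 1 fell without RP replicate 2, RPTi replicate 1 or RPTi replicate 2. Of the 4 tested tendon genes, 3 rose and none fell in RPTi against RPT, and 3 rose and none fell against RP. In RPT 1 rose, Scx, and 1 fell, Tnmd. Tnmd, named after its values were seen, was at 2.71 ± 0.179 CPM in RP, 1.34 ± 0.147 in RPT and 4.61 ± 0.842 in RPTi. Thbs4 and Scx led the tendon list. Thbs4 was at 27.8 ± 1.14 CPM in RP, 23.6 ± 1.57 in RPT and 40.3 ± 4.10 in RPTi. Scx was at 24.1 ± 3.41 CPM in RP, 34.7 ± 2.67 in RPT and 36.6 ± 2.02 in RPTi. The part of such cells in the Cilp result was not tested.

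Likeness was measured as the root mean square difference in log2 CPM over the 9 libraries, with each gene centred on its own mean, among 11049 named genes of at least 1 CPM. The genes most like Prg4 were the chemokine gene Cxcl3 (0.42), the gelatinase gene Mmp9 (0.44), the acute-phase gene Lcn2 (0.45) and Chi3l1, a secreted glycoprotein (0.48), against a median gene at 1.57. None was as near as the best matches of the other members, but this distance is not scaled to a gene's own range. The root mean square deviation from the gene's own mean was 1.57 for Prg4, 1.08 for Cilp and 0.62 for Cilp2. Lcn2 was at 12.3, 194 and 69.2 CPM in RP, RPT and RPTi, so it too kept a level above RP with the inhibitor. In the same order Cxcl3, a gene of low level, was at 0.409 ± 0.123, 5.78 ± 0.529 and 0.717 ± 0.0821 CPM (SD). The mean of Cxcl3 in RPTi was also above RP, but by less than that of Lcn2.

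Cilp had nearer neighbours in pattern: Magel2 (0.09), Tmtc1 (0.13), the stem cell factor receptor gene Kit (0.15) and Enho, which encodes a secreted peptide (0.16; median gene 1.10). In the order RP, RPT and RPTi, Magel2 was at 13.8 ± 0.860, 3.65 ± 0.688 and 21.2 ± 1.40 CPM and Kit at 16.1 ± 1.00, 3.99 ± 0.553 and 19.3 ± 1.18 CPM. The genes most like Cilp2 were the calcium-binding matrix proteins Smoc1 and Smoc2, the actin-binding gene Tagln and the proteoglycan gene Cspg4, all at 0.14 (median gene 0.66). Smoc2 was at 68.6 ± 2.46, 79.4 ± 1.84 and 193 ± 12.8 CPM and Cspg4 at 556, 593 and 1220 CPM. Cilp2 itself stood at 0.97 from Cilp and at 1.63 from Prg4, and Prg4 and Cilp at 2.53 from each other. These values describe the pattern, including the contrast that chose Prg4 and Cilp, and carry no test.

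**Figure D4:**
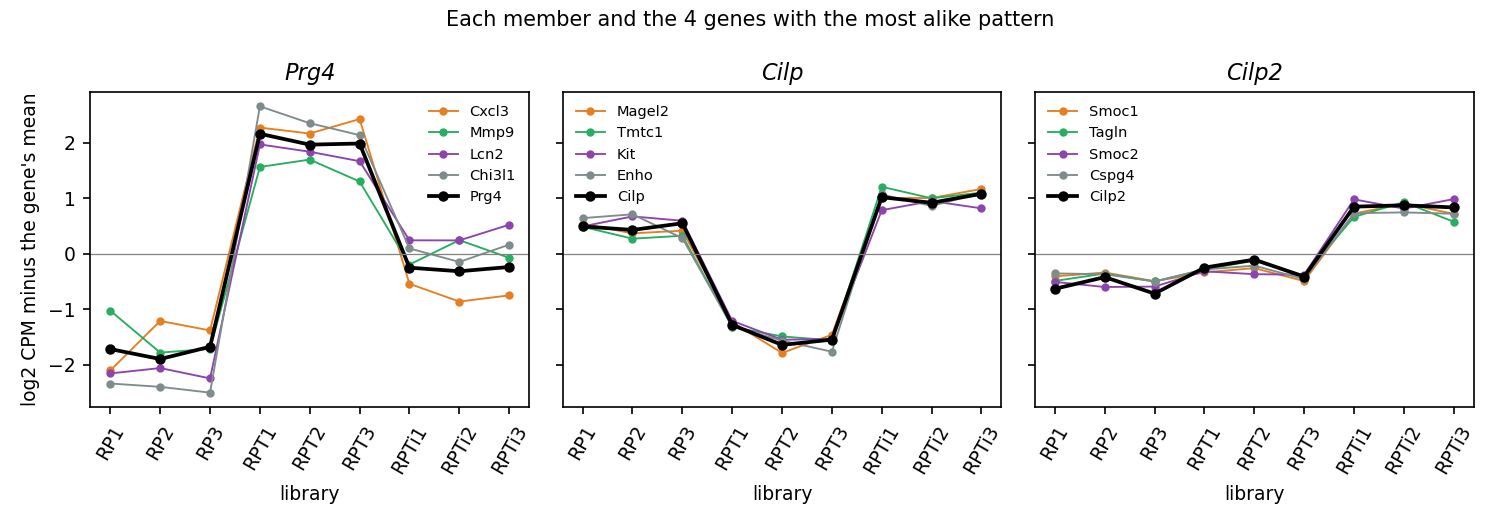
Log2 CPM minus the gene's mean (vertical axis) in the 9 libraries (horizontal axis) for each member, in black, and the 4 genes with the most alike pattern. The matches of Cilp and Cilp2 lie close to the member (root mean square difference 0.09 to 0.16), those of Prg4 spread more (0.42 to 0.48). Prg4 itself also varied most, with a root mean square deviation from its mean of 1.57, against 1.08 for Cilp and 0.62 for Cilp2.

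The nearest genes on the chromosome were examined in the GRCr8 gene table, for order only. The annotated span of Prg4 overlaps that of Tpr, a nuclear pore gene, and since the strand setting of the counting is not given, reads from any shared part cannot be told apart. Tpr itself was at 104 ± 34.4 CPM in RP, 114 ± 36.5 in RPT and 98.2 ± 11.5 in RPTi and did not pass in any comparison (adjusted p = 0.716, 0.488 and 0.828). On the other side of Prg4 lies Hmcn1, which encodes the matrix protein hemicentin. It was at 43.7 ± 3.19, 17.7 ± 1.15 and 57.1 ± 3.61 CPM, a fall (-1.30, SE 0.08, adjusted p = 2.83e-07) and a rise (1.69, SE 0.08, adjusted p = 8.66e-09) with the signs of Cilp rather than of its neighbour. Beside Cilp, Clpx did not pass in any comparison, and Parp16 fell slightly in RPT (-0.42, SE 0.14, adjusted p = 0.0446) and did not pass in the others. Beside Cilp2, Pbx4 was below 0.6 CPM in every group mean and did not pass, and Yjefn3 had 2 to 12 counts and was not tested.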

How the data were processed

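Poly-A RNA sequencing of 9 libraries was deposited by the authors as whole-number read counts and FPKM per gene. Per the submitters' processing notes, the tools included HISAT2, HTSeq 0.11.2 and DESeq2 1.26.0, with the build Rnor_6.0. No source used here states the tools' roles, the annotation release or the strand setting. Counts were filtered with filterByExpr (minimum count 10, minimum total 15; 0.0259% of counts removed), scaled by TMM and fitted with the quasi-likelihood test of edgeR 4.0.16 in R 4.3.3, 1 coefficient per group over all 9 libraries. Benjamini-Hochberg adjusted p-values cover all 13856 tested genes, with a threshold of 0.05. Each SE was derived from the log2 fold change and the F value. The fit was also tested on counts simulated from its own estimates, which cannot show whether the model suits these data. Deposited FPKM values served for levels between genes. Alternatives used limma 3.58.1 and DESeq2 1.42.0, and the closing section gives them. Of 96 listed symbols in 11 lists, 92 had a row, 1 (Ecrg4) by an older symbol. Some symbols stand in several lists, and their calls count in each. Replicates differed by more than sampling noise (chi-square per degree of freedom 5.06 to 27.6).

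Named genes were the members, Sox9, Col2a1 and Acan, up to 4 called genes of each list with the smallest p per contrast and those needed to describe a list, the 2 most abundant other-cell markers, the 4 genes most like each member and the nearest genes. The members and lists were chosen with earlier results of these data known.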

Additional observations from a re-analysis of the deposited data

How the results depend on the processing

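The calls and directions of Prg4, Cilp and Cilp2 in the 3 tested contrasts were the same under every alternative run: other size factors, library totals, other filters, DESeq2, limma on FPKM, fits of only the 2 groups compared (not run for RPTi against the mean of RP and RPT, which needs all 3 groups), a replicate block and each library left out in turn. Their largest adjusted p was 0.0119, for Cilp in RPTi against RP. Leaving out 1 library gave log2 fold changes of -2.35 to -2.24 for Prg4, 2.41 to 2.6 for Cilp and 1.03 to 1.18 for Cilp2 in RPTi against RPT, and of 1.42 to 1.53, 0.48 to 0.56 and 1.38 to 1.52 against RP. On log2(FPKM + 1), which understates changes of low genes, the described difference between RPT and RP was 3.59 for Prg4 and -1.52 for Cilp, in place of 3.80 and -1.97. Deviations of same-numbered libraries of different groups had correlations of -0.114 to 0.124, and those of unlike number -0.161 to 0.143. These values show no pairing by number, but correlations over all genes cannot exclude one. With the replicate block, 2514 genes rose and 2560 fell in RPT, against 1886 and 2113 without it. Prg4 was at -2.31 between RPTi and RPT with the block, with an SE of 0.05 against 0.08 without it. More genes were thus called with the block, and whether the numbers mark a pairing is not settled. The counts of Cilp in RPT, 213 to 324, were the lowest of any member and group, which limits the precision there.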
